A study of Mus musculus with 12 samples.

Results

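The genes described here are 35 mouse genes that mark neutrophils and the steps of their maturation, chosen by gene symbol from the deposited table of 50643 gene rows. They were measured by RNA sequencing of NK cells isolated from the spleen by negative selection, a procedure that removes other cells and keeps what remains. All mice were C57BL/6. The 4 groups were wild-type and Mirc11-/- mice, each either unchallenged or challenged with Listeria, with 3 libraries in each group and 12 in all. Mirc11-/- mice lack the gene cluster for the microRNAs miR-23a, miR-27a and miR-24-2, short RNAs that repress matching messenger RNAs. The labels name no promoter, Cre or cell type limit for the deletion, so every cell type in a preparation may carry it. The sources used here do not give the dose, route or time of the challenge, the age of the mice or the number of mice behind a library. The 35 genes fall into 5 classes by role, namely 4 primary granule genes, 4 secondary granule genes, 9 genes of the promyelocyte to metamyelocyte stages, 10 genes of late stages and the cytosol, and 8 surface receptor genes. All 35 were among the 16694 genes with enough counts to be tested. Itgam appears on 2 rows, so the 35 genes cover 36 rows.

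Neutrophils mature in the bone marrow through promyelocyte, myelocyte, metamyelocyte and band stages, and each stage fills a different set of granules. Primary granules, loaded in promyelocytes, carry myeloperoxidase and serine proteases, secondary granules carry lactoferrin, cathelicidin and lipocalin, and the last stages express gelatinase, calprotectin and the receptors that guide migration. Transcripts for primary and secondary granule proteins are largely silenced before a neutrophil leaves the marrow, although infection can bring immature forms into the blood and spleen, and the mouse spleen itself can make granulocytes. PU.1 and C/EBP factors are the best known regulators of these genes, C/EBP epsilon being required for the secondary granule genes.

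Promoters were examined for the motifs of the PU.1 and C/EBP factors named above. RefSeq start sites were matched for 30 of the 35 members on GRCm38.p6, and the 250 bases before each start were searched on both strands for the C/EBP letters TTNNGNAA and the PU.1 letters GAGGAA. The motifs can share bases only where GAGGAA forms the last 6 bases of a C/EBP match. The 6 windows below are printed because the primary genes Mpo and Elane, the secondary genes Ltf, Ngp and Lcn2 and the ficolin gene Fcnb behaved differently in the comparisons that follow. Each runs 5′ to 3′ on the gene's own strand and ends at the base before the start, with motif matches in capitals. The start is the RefSeq one, which in each printed case lay inside the gene's GENCODE span. Part of each window, and all of the Lcn2 window, thus overlapped its own gene. TTCCTC is GAGGAA read on the opposite strand.
Mpo, chr11:87793534-87793783, plus strand: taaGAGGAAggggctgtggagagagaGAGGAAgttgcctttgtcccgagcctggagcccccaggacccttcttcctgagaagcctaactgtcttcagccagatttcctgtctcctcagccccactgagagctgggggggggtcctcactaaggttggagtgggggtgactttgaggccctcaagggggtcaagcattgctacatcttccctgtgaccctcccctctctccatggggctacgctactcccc
Elane, chr10:79886062-79886311, plus strand: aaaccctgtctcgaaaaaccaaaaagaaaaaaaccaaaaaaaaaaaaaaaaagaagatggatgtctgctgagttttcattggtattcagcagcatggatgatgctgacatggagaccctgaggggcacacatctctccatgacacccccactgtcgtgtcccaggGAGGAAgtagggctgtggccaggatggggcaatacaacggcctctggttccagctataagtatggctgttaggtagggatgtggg
Ltf, chr9:111019042-111019291, plus strand: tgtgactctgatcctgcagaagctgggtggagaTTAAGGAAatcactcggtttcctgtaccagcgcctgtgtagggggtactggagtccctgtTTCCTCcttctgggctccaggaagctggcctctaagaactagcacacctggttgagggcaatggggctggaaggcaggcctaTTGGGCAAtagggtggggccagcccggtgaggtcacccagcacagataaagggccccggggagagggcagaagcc
Ngp, chr9:110419558-110419807, plus strand: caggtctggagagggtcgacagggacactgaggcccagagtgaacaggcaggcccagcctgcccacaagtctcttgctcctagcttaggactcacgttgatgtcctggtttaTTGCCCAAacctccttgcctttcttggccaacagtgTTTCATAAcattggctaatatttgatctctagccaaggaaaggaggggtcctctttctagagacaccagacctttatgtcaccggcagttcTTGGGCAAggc
Lcn2, chr2:32387740-32387989, minus strand: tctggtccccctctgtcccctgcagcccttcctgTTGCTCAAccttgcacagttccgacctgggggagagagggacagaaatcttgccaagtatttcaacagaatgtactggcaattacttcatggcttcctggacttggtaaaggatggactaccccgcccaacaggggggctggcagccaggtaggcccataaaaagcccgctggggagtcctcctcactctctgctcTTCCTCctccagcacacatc
Fcnb, chr2:28084879-28085128, minus strand: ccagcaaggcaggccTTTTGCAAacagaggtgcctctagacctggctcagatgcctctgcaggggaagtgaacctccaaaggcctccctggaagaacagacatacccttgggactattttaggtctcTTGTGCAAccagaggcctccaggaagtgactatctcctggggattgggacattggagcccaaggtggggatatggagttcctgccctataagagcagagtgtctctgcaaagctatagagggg

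The C/EBP letters were present in 18 of the 30 member windows (60.0%) and in 36.8% of 32851 RefSeq mouse promoter windows of the same length. None of the 4 primary granule windows held them, against 3 of 4 secondary windows (Ltf, Ngp and Lcn2, not Camp) and 6 of 7 stage gene windows. The PU.1 letters were present in 19 of the 30 member windows (63.3%) and in 23.3% of all windows, and all 4 primary granule windows held them. Ltf and Lcn2 were the secondary genes with the PU.1 letters. Ngp held 3 C/EBP matches, ending with one 11 bases before its start, and Fcnb held 2. A match is a description of the letters in these windows and not a measured binding site.

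Seed matches were sought for 3 mature microRNAs of the deleted cluster. Other mature forms from the cluster were not searched. The 3 differ in their seeds, the stretch at bases 2 to 8 that pairs with targets, shown here in capitals.
mmu-miR-23a-3p: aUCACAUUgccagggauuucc
mmu-miR-27a-3p: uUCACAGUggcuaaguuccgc
mmu-miR-24-3p: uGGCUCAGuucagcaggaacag
A perfect match to the miR-23a seed was found in the 3′ untranslated region of 1 of the 35 members, Hdc, against 17.1% of 13543 tested genes with such a region. The miR-27a seed matched 2 members, Ngp and Trem1, against 19.0% of genes. The miR-24 seed matched 1 member, Lrg1, against 21.0% of genes. A longer region has more places for a match, and region lengths were not compared between the members and all genes. Primary granule genes held no match to any of these seeds. The microRNA genes themselves had 0 counts in all 12 libraries, which were made from polyadenylated RNA, so they check no label.

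Several facts about the libraries come before the results. Total counts ran from 17624530 to 23665679, so 1 count was worth 0.0423 to 0.0567 CPM, which is the count scaled to the column total. Gm26532, a noncoding RNA annotated at the end of the microRNA cluster on chromosome 8, measured 2.67, 2.35 and 4.88 CPM in unchallenged wild-type and 2.34, 4.27 and 3.40 CPM in challenged wild-type libraries. It stood at 0.113, 0.498 and 0.149 CPM in unchallenged Mirc11-/- and 0.887, 0.984 and 2.70 CPM in challenged Mirc11-/- libraries, so the library labelled challenged Mirc11-/- replicate 3 lay within the wild-type range. Whether the deletion covers that transcript is not stated. Sex-linked transcripts also followed the groups. Xist, transcribed from the inactive X chromosome, measured 0.362 to 1.08 CPM in unchallenged Mirc11-/- libraries and at least 526 CPM in the other 9. Ddx3y, a Y-linked gene, measured 83.6 to 135 CPM in unchallenged Mirc11-/-, 44.1 to 80.5 CPM in challenged Mirc11-/- and 34.6 CPM in unchallenged wild-type replicate 4, and at most 0.133 CPM in the other 5 wild-type libraries. The challenged Mirc11-/- libraries and unchallenged wild-type replicate 4 thus held both Xist and Ddx3y. Whether a library pools mice of both sexes is not stated, so a replicate should not be read as a single mouse. Genotype and the sex of the mice cannot be told apart here, nor can challenge and sex within Mirc11-/- mice.

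The genes changed in almost every comparison, and the clearest feature was that unchallenged Mirc11-/- preparations already held raised levels. In wild-type libraries 32 of the 35 genes were called higher after challenge and 2, Anxa1 and Itgam, lower (edgeR quasi-likelihood test, Benjamini-Hochberg adjusted p below 0.05 over all genes tested). The same test called 32.4% of all genes higher and 30.9% lower, and the median log2 change was 4.15 for the 35 genes and -0.01 for all tested genes. In Mirc11-/- libraries challenge gave 27 higher and 6 lower, against 15.6% and 11.5% of all genes, with a median of 1.3. Without challenge 26 of the 35 were higher in Mirc11-/- than in wild-type and 0 lower, against 6.64% and 5.07% of all genes, with a median of 2.37. At an unadjusted p below 0.05 0 of the 35 were lower there, and DESeq2 called 0 lower. After challenge 8 were higher in Mirc11-/- (5 without challenged wild-type replicate 1 or challenged Mirc11-/- replicate 1 or 2) and 22 lower, against 22.7% and 25.9% of all genes, with a median of -0.59. The log2 challenge response in Mirc11-/- minus that in wild-type was called below 0 for 32 genes and above 0 for 1, Itgam, which fell less in Mirc11-/-, against 18.5% and 16.7% of all genes for those directions. In the unchallenged comparison every Mirc11-/- library lay above every wild-type library for 30 of the 35 genes, a separation seen in 14.4% of all tested genes. Between challenged genotypes 31.4% of all tested genes lay wholly above and 22.3% wholly below. On challenge these shares were 30.1% and 40.2% in wild-type and 20.9% and 18.4% in Mirc11-/-. Groups without overlap are thus common in those comparisons. Among the 35, Fcnb, Olfm4, Elane, Ms4a3, Cebpe and Stfa2l1 had fewer than 10 counts in each unchallenged wild-type library. They were tested only because other groups were higher, which favours such calls and separations. In unchallenged wild-type Wfdc21 (3, 3 and 19 counts), Trem3 (11, 8 and 13) and Il1r2 (12, 7 and 14) also had libraries under 10. The same limit applies to Wfdc21, Trem3 and Il1r2. Comparisons that share a group are not independent of each other. In bulk RNA fewer cells of a type and less RNA per cell cannot be told apart.

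**Figure D1:**
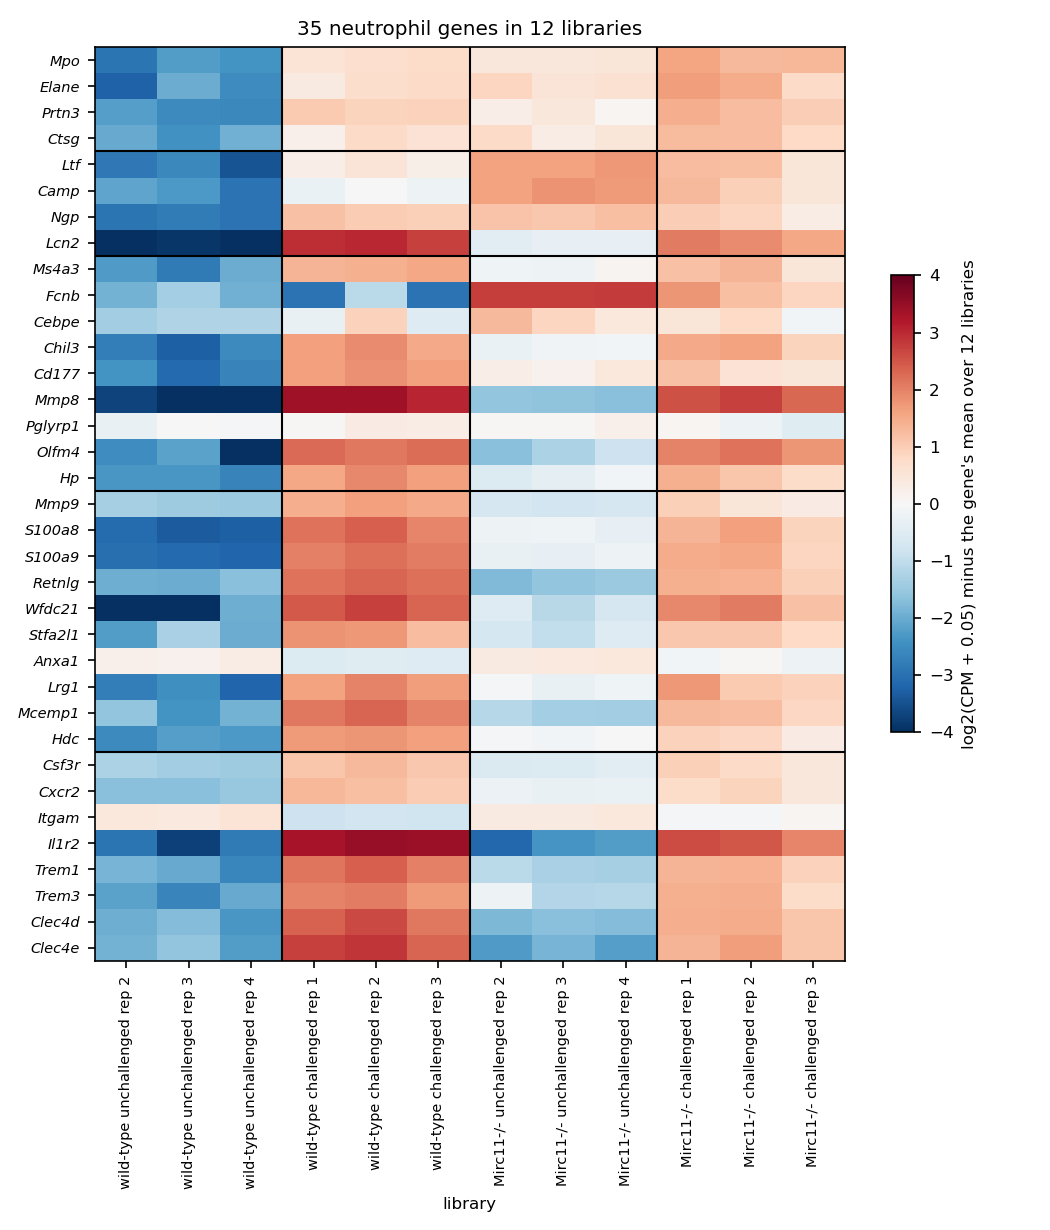
Level of each of the 35 genes (rows, by class from primary granule genes at the top to surface receptors at the bottom) in the 12 libraries (columns, by group), as log2(CPM + 0.05) minus the gene's mean over the 12 libraries, with colours limited to 4 log2 units either way. Unchallenged wild-type columns are the lowest for most rows, while unchallenged Mirc11-/- columns are highest for Ltf, Camp and Fcnb.

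Leaving out unchallenged wild-type replicate 4 and challenged Mirc11-/- replicate 3 together, an alternative chosen after the data were seen, gave 32 higher and 2 lower for the challenge in wild-type and 27 higher and 5 lower for that in Mirc11-/-. The genotype comparison then gave 27 higher and 0 lower without challenge and 8 higher and 20 lower after it, and the difference of challenge responses was called below 0 for 30 genes. No called change reversed under the other scalings, tests or left-out libraries that were tried.

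Primary granule genes were almost silent in unchallenged wild-type preparations and rose in both genotypes on challenge, and unchallenged Mirc11-/- preparations held them near the level that wild-type reached only after challenge. Their summed level was 4.95 ± 0.72 CPM (SD, n = 3) without and 44.3 ± 2.4 CPM with challenge in wild-type libraries, and 37.9 ± 0.96 CPM without and 69.9 ± 8.7 CPM with challenge in Mirc11-/- libraries. All 4 were called higher on challenge in either genotype and higher in unchallenged Mirc11-/- than wild-type, and 3 of 4 were higher in challenged Mirc11-/- than in challenged wild-type. The call for challenge in Mirc11-/- was lost for Elane in 11 of 21 alternatives and for Ctsg in 5. Between challenged groups Elane lost it in 6 and Ctsg in 5.

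Positions are on GRCm38. Mpo (chr11:87793581-87804413) encodes myeloperoxidase, which makes hypochlorous acid. In wild-type libraries it measured 2.35, 3.84 and 3.40 CPM without challenge (replicates 2, 3 and 4) and 26.5, 29.0 and 29.8 CPM after it (replicates 1, 2 and 3). Mpo came to 24.8, 24.6 and 25.6 CPM in unchallenged and 53.6, 44.6 and 45.2 CPM in challenged Mirc11-/- libraries, in the same order of replicates, which is kept below. The 3 unchallenged wild-type values lay below all others, and the 3 challenged Mirc11-/- values above all others. The log2 change on challenge was 3.25 ± 0.14 (standard error) in wild-type (edgeR adjusted p = 2.16e-11) and 0.93 ± 0.11 in Mirc11-/- (adjusted p = 1.49e-05). Between genotypes it was 2.98 ± 0.14 without challenge (adjusted p = 3.05e-09) and 0.66 ± 0.11 after it (adjusted p = 0.000126). The annotated antisense gene Gm11505 overlaps 512 exon bases of Mpo, and whether the counting used strand is not stated.

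Elane (chr10:79886247-79888215), neutrophil elastase, and Prtn3 (chr10:79874476-79883174), proteinase 3, are neighbouring serine protease genes 3.1 kb apart on chromosome 10. Elane measured 0.164, 0.460 and 0.305 CPM in unchallenged and 2.56, 3.24 and 3.35 CPM in challenged wild-type libraries. Elane was at 3.63, 2.85 and 3.02 CPM in unchallenged and 6.38, 5.58 and 3.35 CPM in challenged Mirc11-/- libraries. The unchallenged wild-type libraries stood apart as the lowest, whereas challenged Mirc11-/- replicate 3 fell inside the ranges of the unchallenged Mirc11-/- and challenged wild-type groups. Elane passed the filter on low counts only through groups other than unchallenged wild-type, which held 3, 9 and 6 counts. The separation and the adjusted p that involve that group are therefore descriptive. Elane rose by a log2 of 3.37 ± 0.34 on challenge in wild-type (adjusted p = 4.65e-07) and was higher by 3.33 ± 0.34 in unchallenged Mirc11-/- than wild-type (adjusted p = 8.38e-06). Its challenge response in Mirc11-/- was 0.68 ± 0.23 (adjusted p = 0.0413) and its difference between challenged groups 0.65 ± 0.23 (adjusted p = 0.0305), both with overlapping libraries, and each call was lost in several alternatives, with adjusted p up to 0.207 and 0.146.

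Prtn3 measured 0.873, 0.665 and 0.660 CPM in unchallenged and 8.70, 7.78 and 7.87 CPM in challenged wild-type libraries, and a partner on the opposite strand, Plppr3, overlaps 159 of its exon bases. Prtn3 measured 4.99, 5.70 and 4.41 CPM in unchallenged and 11.5, 9.84 and 8.27 CPM in challenged Mirc11-/- libraries. As for Mpo, its unchallenged Mirc11-/- values lay wholly below the challenged wild-type values, by a wider margin. The log2 changes were 3.57 ± 0.19 on challenge in wild-type (adjusted p = 4.09e-10), 0.96 ± 0.15 on challenge in Mirc11-/- (adjusted p = 0.000184) and 2.79 ± 0.20 between unchallenged genotypes (adjusted p = 2.44e-07). The difference between challenged groups was 0.19 ± 0.14, with overlapping libraries (adjusted p = 0.287).

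Ctsg (chr14:56099881-56102574), cathepsin G, measured 0.764, 0.563 and 0.813 CPM in unchallenged and 3.77, 5.55 and 4.83 CPM in challenged wild-type libraries. Ctsg stood at 5.56, 3.98 and 4.61 CPM in unchallenged and 7.90, 7.64 and 5.67 CPM in challenged Mirc11-/- libraries. As with Elane, unchallenged Mirc11-/- and challenged wild-type libraries overlapped. The log2 change was 2.82 ± 0.24 on challenge in wild-type (adjusted p = 6.32e-08) and 2.73 ± 0.24 between unchallenged genotypes (adjusted p = 1.87e-06). The challenge response in Mirc11-/- was 0.58 ± 0.18 (adjusted p = 0.0272) and the difference between challenged groups 0.49 ± 0.18 (adjusted p = 0.0349), calls lost in 5 alternatives each, with adjusted p up to 0.128 and 0.149.

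Secondary granule genes had the largest median difference between unchallenged genotypes of the 5 classes, and those other than Lcn2 rose on challenge in wild-type but were called lower in Mirc11-/-, a call that Ngp lost in 8 of 21 alternatives and Ltf in 2. Their summed level was 11.3 ± 1.9 CPM without and 417 ± 35 CPM with challenge in wild-type libraries, and 213 ± 7.4 CPM without and 270 ± 57 CPM with challenge in Mirc11-/- libraries. All 4 rose on challenge in wild-type, while 3 were called lower and Lcn2 rose on challenge in Mirc11-/-. Lcn2 made up most of the challenged sums, averaging 305 CPM in challenged wild-type and 146 CPM in challenged Mirc11-/- libraries. The rise of the Mirc11-/- sum on challenge was thus that of Lcn2 and not of Ltf, Camp and Ngp. Between challenged groups Ltf and Camp were higher and Ngp and Lcn2 lower in Mirc11-/-.

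Ltf (chr9:111019271-111042767), lactoferrin, which binds iron, measured 3.22, 3.94 and 2.13 CPM in unchallenged and 28.8, 33.7 and 27.96 CPM in challenged wild-type libraries. Ltf came to 73.0, 73.2 and 79.3 CPM in unchallenged and 56.6, 54.4 and 33.3 CPM in challenged Mirc11-/- libraries. Every unchallenged Mirc11-/- library exceeded every challenged library of either genotype, and challenged Mirc11-/- replicate 3 overlapped the challenged wild-type range. The log2 difference between unchallenged genotypes was 4.62 ± 0.23 (adjusted p = 1e-07). On challenge Ltf rose by 3.39 ± 0.23 in wild-type (adjusted p = 7.45e-08), whereas the change in Mirc11-/- was -0.65 ± 0.18 (adjusted p = 0.0164). The higher level in challenged Mirc11-/- than wild-type, 0.58 ± 0.18 (adjusted p = 0.0193), was lost in 5 alternatives, with adjusted p up to 0.0834, and the fall in Mirc11-/- in 2, with adjusted p up to 0.0741.

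Camp (chr9:109847379-109849617), the cathelicidin precursor of an antimicrobial peptide, measured 1.85, 1.64 and 1.02 CPM in unchallenged and 6.75, 8.04 and 7.16 CPM in challenged wild-type libraries. Camp was at 25.1, 28.5 and 27.1 CPM in unchallenged and 20.2, 16.1 and 11.4 CPM in challenged Mirc11-/- libraries. No groups overlapped, and the order from low to high was unchallenged wild-type, challenged wild-type, challenged Mirc11-/- and unchallenged Mirc11-/-. The log2 differences were 4.18 ± 0.22 between unchallenged genotypes (adjusted p = 1.54e-08) and 1.03 ± 0.18 between challenged ones (adjusted p = 0.000243). On challenge it changed by 2.39 ± 0.23 in wild-type (adjusted p = 3.97e-07) and by -0.77 ± 0.17 in Mirc11-/- (adjusted p = 0.00328).

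Ngp (chr9:110419747-110423012), neutrophilic granule protein, a relative of the cathelicidins and cystatins, measured 4.69, 5.12 and 4.57 CPM in unchallenged and 80.8, 72.0 and 70.0 CPM in challenged wild-type libraries. Ngp measured 79.2, 75.6 and 82.1 CPM in unchallenged and 70.8, 64.7 and 44.2 CPM in challenged Mirc11-/- libraries. The 3 groups other than unchallenged wild-type lay close together, and challenged Mirc11-/- replicate 3 was the lowest of those 9 libraries. The log2 difference was 4.06 ± 0.16 between unchallenged genotypes (adjusted p = 3.05e-09) and 4.06 ± 0.16 on challenge in wild-type (adjusted p = 3.68e-11). In Mirc11-/- the challenge response was -0.41 ± 0.13 (adjusted p = 0.0284) and lost its call in 8 of 21 alternatives, with adjusted p up to 0.0881. These were no filter on low counts, a fit of only the groups compared, leaving out any 1 unchallenged Mirc11-/- library or challenged Mirc11-/- replicate 2 or 3, and leaving out challenged Mirc11-/- replicate 3 with unchallenged wild-type replicate 4. Without challenged Mirc11-/- replicate 3 alone the change was -0.23 (adjusted p = 0.0587). Between challenged groups the difference was -0.41 ± 0.13 with overlap (adjusted p = 0.0166), a call lost in 3 alternatives.

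Lcn2 (chr2:32384633-32388252), lipocalin 2, which captures bacterial siderophores, measured 1.42, 2.66 and 1.78 CPM in unchallenged and 316, 328 and 271 CPM in challenged wild-type libraries. Lcn2 stood at 30.0, 32.4 and 32.6 CPM in unchallenged and 172, 149 and 119 CPM in challenged Mirc11-/- libraries. The 4 groups did not overlap, and challenged wild-type was the highest. The log2 change on challenge was 7.38 ± 0.19 in wild-type (adjusted p = 2.77e-12) and 2.2 ± 0.14 in Mirc11-/- (adjusted p = 1.14e-07), the largest difference of responses among the 35 genes (-5.18 ± 0.24, adjusted p = 9.61e-09). Between genotypes Lcn2 differed by 4.03 ± 0.20 without challenge (adjusted p = 3.08e-08) and by -1.15 ± 0.13 after it (adjusted p = 8.58e-06).

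**Figure D2:**
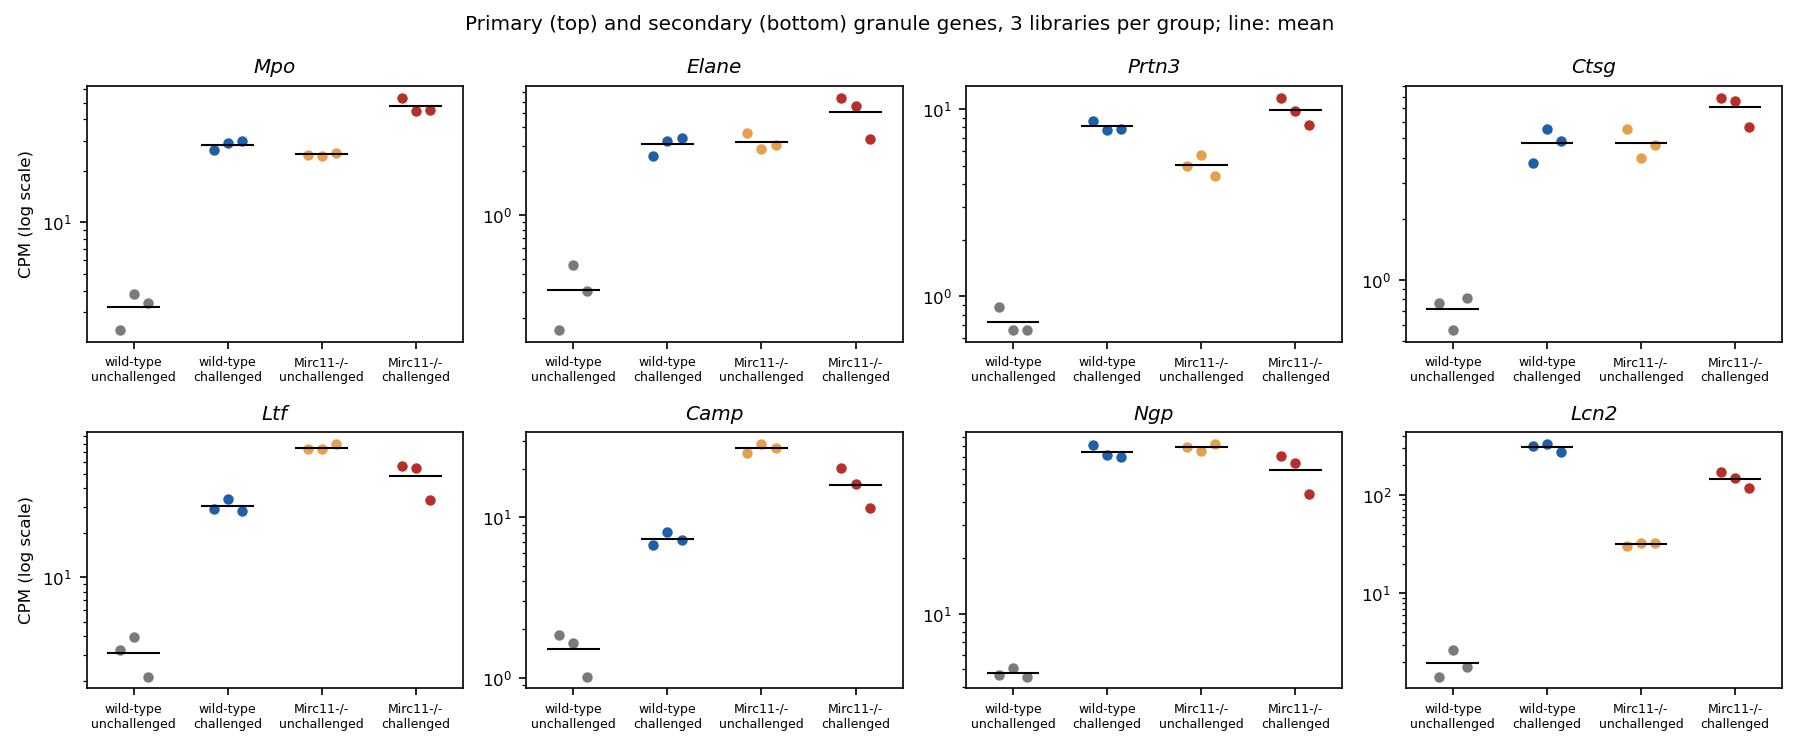
Level of the 4 primary (top row) and 4 secondary (bottom row) granule genes in CPM on a log axis, 1 point per library and a line at the mean of 3 libraries, by group. Unchallenged wild-type points sit lowest in every panel, while unchallenged Mirc11-/- points are the highest for Ltf and Camp and lie far below the challenged groups for Lcn2.

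The 9 genes of the promyelocyte to metamyelocyte stages summed to 68.6 ± 4.4 CPM without and 481 ± 46 CPM with challenge in wild-type libraries, and 138 ± 8.9 CPM without and 326 ± 60 CPM with challenge in Mirc11-/- libraries. Pglyrp1 averaged 56.5 CPM in unchallenged wild-type libraries and made up most of the sum there. Challenge in wild-type raised 8 of 9, Fcnb being the exception. In Mirc11-/- it raised 6 and lowered 1, again Fcnb. Of the 9, 8 were higher in unchallenged Mirc11-/- than wild-type, and after challenge 1 was higher and 4 were lower.

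Fcnb, ficolin B, a complement-activating lectin of marrow myeloid precursors, was nearly absent from wild-type libraries. It measured 0.055, 0.102 and 0.051 CPM in unchallenged and 0, 0.133 and 0 CPM in challenged wild-type libraries, which rest on 4 and 3 counts in all. Fcnb came to 2.55, 2.58 and 2.62 CPM in unchallenged and 1.27, 0.843 and 0.651 CPM in challenged Mirc11-/- libraries, or 155 and 62 counts. Both Mirc11-/- groups stood above both wild-type groups without overlap. The ratio of Mirc11-/- to wild-type was 37.2 without challenge (exact 95% interval 14.2 to 138, counting error only) and 21.1 after it (6.90 to 105). The edgeR log2 differences were 5.12 ± 0.52 (adjusted p = 8.11e-06) and 4.13 ± 0.62 (adjusted p = 5.49e-05). Fcnb passed the filter on low counts only through the Mirc11-/- groups, so its separation and these adjusted p are descriptive. Within Mirc11-/- challenge changed Fcnb by -1.48 ± 0.34 (adjusted p = 0.00425). In wild-type the ratio of challenged to unchallenged was 0.635 with an interval from 0.0931 to 3.76, too few counts to show a change.

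Mmp8, neutrophil collagenase, had the largest challenge response of the 35 genes in wild-type. It measured 1.42, 0.921 and 0.762 CPM in unchallenged and 199.6, 197 and 155 CPM in challenged wild-type libraries. Mmp8 was at 6.30, 6.11 and 5.89 CPM in unchallenged and 111, 126 and 93.1 CPM in challenged Mirc11-/- libraries. No groups overlapped. The log2 change on challenge was 7.58 ± 0.18 in wild-type (adjusted p = 3.94e-13) and 4.16 ± 0.14 in Mirc11-/- (adjusted p = 7.95e-11), and between genotypes 2.58 ± 0.23 without challenge (adjusted p = 2.46e-06) and -0.84 ± 0.11 after it (adjusted p = 3.01e-05).

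Chil3, the chitinase-like protein Ym1, measured 4.64, 3.33 and 5.49 CPM in unchallenged and 99.7, 121 and 92.7 CPM in challenged wild-type libraries. Chil3 measured 27.0, 29.1 and 29.6 CPM in unchallenged and 92.1, 98.7 and 59.8 CPM in challenged Mirc11-/- libraries. Challenged libraries of the genotypes overlapped (-0.42 ± 0.17, adjusted p = 0.0638), while the unchallenged ones did not (2.69 ± 0.22, adjusted p = 8.35e-06). Hp, haptoglobin, the plasma carrier of free haemoglobin that granulocytes also store, measured 4.58, 4.60 and 3.66 CPM in unchallenged and 68.2, 88.7 and 72.9 CPM in challenged wild-type libraries. Hp stood at 15.9, 18.2 and 21.6 CPM in unchallenged and 63.5, 51.2 and 39.0 CPM in challenged Mirc11-/- libraries. Its log2 difference between genotypes was 2.14 ± 0.21 without challenge (adjusted p = 1.8e-05) and -0.67 ± 0.16 after it (adjusted p = 0.00403), with no overlap in either.

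Cd177, a surface protein that binds proteinase 3 on human neutrophils, measured 1.96, 1.18 and 1.63 CPM in unchallenged and 32.9, 37.2 and 33.2 CPM in challenged wild-type libraries. Cd177 came to 12.5, 11.99 and 14.1 CPM in unchallenged and 23.6, 15.7 and 14.6 CPM in challenged Mirc11-/- libraries. Its response in Mirc11-/-, 0.48 ± 0.16 (adjusted p = 0.043), was far below the 4.54 ± 0.21 in wild-type (adjusted p = 9.56e-11), and 12 of 21 alternatives lost the call in Mirc11-/-, with adjusted p up to 0.198. Pglyrp1, a peptidoglycan recognition protein of secondary granules, was already abundant in unchallenged wild-type libraries at 50.3, 60.1 and 59.2 CPM, with 63.1, 77.3 and 75.7 CPM after challenge. Pglyrp1 was at 63.4, 63.1 and 70.9 CPM in unchallenged and 64.1, 53.5 and 43.8 CPM in challenged Mirc11-/- libraries. Its changes were small, 0.45 ± 0.12 on challenge in wild-type (adjusted p = 0.00503) and 0.24 ± 0.12 between unchallenged genotypes (adjusted p = 0.287). On challenge in Mirc11-/- the change was below 0 but not called, at -0.45 to -0.18 over the alternatives, 3 of which called it. Between challenged groups Pglyrp1 was called lower in Mirc11-/-, at -0.67 to -0.39 over the alternatives, and the difference of responses was -0.75.

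The 3 remaining genes of the class were scarce. Ms4a3, a membrane protein of granulocyte and monocyte progenitors, measured 0.327, 0.205 and 0.406 CPM in unchallenged and 4.59, 4.71 and 5.19 CPM in challenged wild-type libraries. Ms4a3 measured 1.53, 1.49 and 1.88 CPM in unchallenged and 3.97, 4.54 and 2.46 CPM in challenged Mirc11-/- libraries, and its difference between unchallenged genotypes was 2.38 ± 0.33 (adjusted p = 0.000123). Cebpe, the transcription factor of the secondary granule programme, measured 0.218, 0.256 and 0.254 CPM in unchallenged and 0.520, 1.29 and 0.447 CPM in challenged wild-type libraries. Cebpe stood at 1.70, 1.22 and 0.891 CPM in unchallenged and 0.930, 1.17 and 0.604 CPM in challenged Mirc11-/- libraries. It was higher by 2.37 ± 0.48 in unchallenged Mirc11-/- (adjusted p = 0.00342), and its rise on challenge in wild-type (1.71 ± 0.50, adjusted p = 0.00785) rested on replicate 2, without which the adjusted p was 0.0654. Olfm4, olfactomedin 4, found in a subset of neutrophils, measured 0.109, 0.153 and 0 CPM in unchallenged and 4.20, 3.82 and 4.12 CPM in challenged wild-type libraries, and 153 of its exon bases are shared with Gm6999. Olfm4 came to 0.227, 0.317 and 0.446 CPM in unchallenged and 3.46, 3.98 and 2.98 CPM in challenged Mirc11-/- libraries. The ratio of unchallenged Mirc11-/- to wild-type was 3.84 (exact 95% interval 1.40 to 13.1, from 20 and 5 counts), and the edgeR call for it (adjusted p = 0.0423) was lost in 11 of 20 alternatives. Fcnb, Olfm4, Elane, Ms4a3, Cebpe and Stfa2l1 are the 6 genes with fewer than 10 counts in each library of some group, and they passed the filter on low counts through the groups in which they were higher. Their separations and adjusted p against those low groups are therefore descriptive. Wfdc21, Trem3 and Il1r2, with fewer than 10 counts in part of the unchallenged wild-type libraries, carry the same limit.

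Genes of late stages and the cytosol had summed levels of 179 ± 6.8 CPM without and 1770 ± 150 CPM with challenge in wild-type libraries, and 447 ± 6.6 CPM without and 1040 ± 220 CPM with challenge in Mirc11-/- libraries. Anxa1 averaged 113 CPM in unchallenged wild-type libraries and made up most of the sum there. Challenge raised 9 of 10 in both genotypes and lowered Anxa1 in both. Between unchallenged genotypes 6 were higher in Mirc11-/- and 4 were not called. After challenge 9 were lower in Mirc11-/- and Anxa1 was higher.

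S100a8 and S100a9 encode the subunits of calprotectin, a cytosolic protein that binds zinc and calcium, and lie 22.6 kb apart on chromosome 3. S100a8 measured 12.1, 10.03 and 10.4 CPM in unchallenged and 454, 530.2 and 393 CPM in challenged wild-type libraries. S100a8 was at 87.4, 90.1 and 81.5 CPM in unchallenged and 261, 315 and 186 CPM in challenged Mirc11-/- libraries. S100a9 followed with 21.1, 19.6 and 18.7 CPM in unchallenged and 685, 794 and 711 CPM in challenged wild-type libraries. S100a9 measured 138, 137 and 147 CPM in unchallenged and 474, 501 and 309 CPM in challenged Mirc11-/- libraries. For each gene the groups did not overlap and ran in the order unchallenged wild-type, unchallenged Mirc11-/-, challenged Mirc11-/-, challenged wild-type. S100a8 changed on challenge by 5.51 ± 0.20 in wild-type (adjusted p = 2.78e-10) and 1.54 ± 0.16 in Mirc11-/- (adjusted p = 2.81e-05), and S100a9 by 5.31 ± 0.17 (adjusted p = 2.09e-11) and 1.59 ± 0.14 (adjusted p = 3.22e-06). Between unchallenged genotypes the differences were 3.01 ± 0.19 (adjusted p = 7.79e-07) and 2.85 ± 0.15 (adjusted p = 9.73e-08), and between challenged ones -0.95 ± 0.16 (adjusted p = 0.000368) and -0.87 ± 0.13 (adjusted p = 0.000167).

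Hdc, histidine decarboxylase, makes histamine and is also a basophil and mast cell gene. It measured 8.73, 11.2 and 10.46 CPM in unchallenged and 167, 175 and 162 CPM in challenged wild-type libraries. Hdc stood at 49.9, 48.3 and 52.3 CPM in unchallenged and 97.9, 92.0 and 65.4 CPM in challenged Mirc11-/- libraries, with no overlap between groups. The difference was 2.33 ± 0.14 between unchallenged genotypes (adjusted p = 5.87e-08) and -1.08 ± 0.12 between challenged ones (adjusted p = 3.24e-06). Basophil and mast cell markers moved beside it, all 7 being higher in unchallenged Mirc11-/- than wild-type, with a summed level of 81.2 to 87.2 CPM without and 171 to 184 CPM with challenge in wild-type libraries, and 238 to 250 CPM without and 195 to 218 CPM with challenge in Mirc11-/- libraries. Their part in the Hdc result was not tested.

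Retnlg and Mmp9 are expressed at the end of maturation. Retnlg, resistin-like gamma, measured 8.46, 8.24 and 10.3 CPM in unchallenged and 150.3, 166 and 152 CPM in challenged wild-type libraries. Retnlg came to 9.59, 11.1 and 11.9 CPM in unchallenged and 87.8, 86.7 and 63.6 CPM in challenged Mirc11-/- libraries. The unchallenged genotypes overlapped (0.29 ± 0.14, adjusted p = 0.231), in contrast with S100a8 and S100a9, and challenged Mirc11-/- lay below challenged wild-type (-1.07 ± 0.11, adjusted p = 1.5e-06). Mmp9, gelatinase B of the tertiary granules, measured 12.3, 11.6 and 11.1 CPM in unchallenged and 84.8, 98.2 and 89.6 CPM in challenged wild-type libraries. Mmp9 was at 19.5, 18.2 and 19.7 CPM in unchallenged and 59.9, 43.7 and 38.9 CPM in challenged Mirc11-/- libraries. Its difference between unchallenged genotypes was 0.74 ± 0.14 (adjusted p = 0.00218), small beside the 3.01 of S100a8, a contrast of genes that was not itself tested.

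Anxa1, annexin A1, a phospholipid-binding protein of neutrophils and of many other cells, went the other way. It measured 111, 109 and 120.5 CPM in unchallenged and 66.2, 68.9 and 67.2 CPM in challenged wild-type libraries. Anxa1 measured 126, 126 and 129 CPM in unchallenged and 90.3, 99.5 and 84.8 CPM in challenged Mirc11-/- libraries. The log2 change on challenge was -0.65 ± 0.06 in wild-type (adjusted p = 3.36e-07) and -0.48 ± 0.06 in Mirc11-/- (adjusted p = 4.33e-05), and the difference of these responses was not called (0.16 ± 0.09, adjusted p = 0.173).

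Mcemp1, a membrane protein first found in mast cells, measured 3.98, 2.25 and 3.20 CPM in unchallenged and 52.7, 60.4 and 47.6 CPM in challenged wild-type libraries. Mcemp1 stood at 5.39, 4.66 and 4.61 CPM in unchallenged and 29.5, 28.6 and 21.3 CPM in challenged Mirc11-/- libraries. Its difference between unchallenged genotypes, 0.65 ± 0.20 (adjusted p = 0.0503), just missed the threshold and passed it in 11 of 21 alternatives. Lrg1, a leucine-rich glycoprotein of neutrophil granules, measured 0.818, 1.02 and 0.610 CPM in unchallenged and 18.1, 23.1 and 18.8 CPM in challenged wild-type libraries. Lrg1 came to 5.50, 4.70 and 5.20 CPM in unchallenged and 19.5, 12.1 and 11.02 CPM in challenged Mirc11-/- libraries. Challenged groups overlapped because Mirc11-/- replicate 1 reached the wild-type range, and the difference (-0.58 ± 0.18, adjusted p = 0.0155) was lost in 5 alternatives.

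Wfdc21, a small whey acidic protein family member, measured 0.164, 0.153 and 0.965 CPM in unchallenged and 21.5, 26.2 and 19.7 CPM in challenged wild-type libraries. Wfdc21 was at 2.67, 1.76 and 2.43 CPM in unchallenged and 14.9, 16.4 and 8.83 CPM in challenged Mirc11-/- libraries. Unchallenged wild-type replicate 4 was several times higher than the other two. The difference between unchallenged genotypes was 2.39 ± 0.53 (adjusted p = 0.0117) and ranged from 1.99 to 3.81 over the alternatives, 3 of which lost the call. Stfa2l1, a stefin that inhibits cysteine proteases, measured 0.164, 0.358 and 0.203 CPM in unchallenged and 3.42, 3.24 and 2.33 CPM in challenged wild-type libraries. Stfa2l1 measured 0.567, 0.452 and 0.644 CPM in unchallenged and 2.07, 2.06 and 1.67 CPM in challenged Mirc11-/- libraries. Its family has near-identical copies, so reads may have been split among them and its values are uncertain. The unchallenged difference was 1.18 ± 0.38 (adjusted p = 0.0585).

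Surface receptor genes had a median response to challenge in wild-type close to that of the late genes and the smallest median difference between unchallenged genotypes of the 5 classes. Their sum was dominated by Itgam and came to 568 ± 29 CPM without and 682 ± 56 CPM with challenge in wild-type libraries, and 572 ± 13 CPM without and 640 ± 21 CPM with challenge in Mirc11-/- libraries. Challenge raised 7 of 8 in both genotypes. Between unchallenged genotypes 4 were higher in Mirc11-/- and 4 were not called, and after challenge 7 were lower and Itgam was higher. The median log2 difference between unchallenged genotypes was 0.75 for these receptors, 4.12 for the secondary granule genes and 2.89 for the primary granule genes.

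Csf3r, the receptor for granulocyte colony-stimulating factor, measured 20.2, 18.6 and 18.3 CPM in unchallenged and 105, 120.3 and 104 CPM in challenged wild-type libraries. Csf3r stood at 32.3, 33.5 and 35.4 CPM in unchallenged and 94.6, 83.5 and 66.9 CPM in challenged Mirc11-/- libraries. Cxcr2, the receptor for CXC chemokines that draws neutrophils out of the marrow, measured 8.95, 8.95 and 9.86 CPM in unchallenged and 71.1, 65.6 and 57.5 CPM in challenged wild-type libraries. Cxcr2 came to 23.9, 23.2 and 23.8 CPM in unchallenged and 47.1, 52.1 and 38.7 CPM in challenged Mirc11-/- libraries. Neither gene's groups overlapped. Between unchallenged genotypes Csf3r differed by 0.85 ± 0.11 (adjusted p = 8.71e-05) and Cxcr2 by 1.37 ± 0.11 (adjusted p = 9.54e-07), and after challenge by -0.52 ± 0.10 (adjusted p = 0.000593) and -0.59 ± 0.10 (adjusted p = 0.000146).

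Itgam encodes the alpha chain of the CR3 integrin (CD11b), which mouse NK cells carry as well as neutrophils. It measured 516, 507 and 564 CPM in unchallenged and 219.9, 230.1 and 224 CPM in challenged wild-type libraries. Itgam was at 493, 496 and 515 CPM in unchallenged and 371, 368 and 405 CPM in challenged Mirc11-/- libraries. It was lower after challenge, with a log2 change of -1.13 ± 0.06 in wild-type (adjusted p = 5.83e-10) and -0.40 ± 0.06 in Mirc11-/- (adjusted p = 0.000221), and challenged Mirc11-/- libraries kept more of it (0.67 ± 0.06, adjusted p = 5.41e-07). The NK cell list moved beside it, with 8 of 10 markers lower on challenge in wild-type, 9 of 10 lower in Mirc11-/- and a summed level of 7160 to 8230 CPM without and 4040 to 4110 CPM with challenge in wild-type libraries, and 7440 to 7700 CPM without and 5320 to 6000 CPM with challenge in Mirc11-/- libraries. None of the 10 was at 0 in any group, and their part in the Itgam result was not tested. A second table row under the same symbol, annotated as the overlapping gene Gm49368, averaged 26.3, 8.69, 41.6 and 23.3 CPM in unchallenged and challenged wild-type and unchallenged and challenged Mirc11-/- libraries. It shares 3450 exon bases with Itgam and, unlike the first row (-0.06 ± 0.06, adjusted p = 0.672), was called higher in unchallenged Mirc11-/- (0.68, adjusted p = 0.00182), so how reads were divided between the rows affects both.

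Il1r2, the decoy receptor for interleukin 1, measured 0.655, 0.358 and 0.711 CPM in unchallenged and 52.8, 60.6 and 58.1 CPM in challenged wild-type libraries. Il1r2 measured 0.567, 0.995 and 1.09 CPM in unchallenged and 32.9, 29.8 and 20.7 CPM in challenged Mirc11-/- libraries. Unchallenged genotypes overlapped (0.66 ± 0.40, adjusted p = 0.377). It rose by 6.73 ± 0.24 in wild-type (adjusted p = 8.06e-12) and by 4.93 ± 0.22 in Mirc11-/- (adjusted p = 1.23e-09), the strongest response in Mirc11-/- among the 35 genes.

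Trem1 and Trem3, activating receptors that amplify inflammatory signals, are neighbours 0.9 kb apart on chromosome 17. Trem1 measured 1.15, 1.02 and 0.660 CPM in unchallenged and 19.0, 22.6 and 17.4 CPM in challenged wild-type libraries. Trem1 stood at 1.99, 1.72 and 1.68 CPM in unchallenged and 11.2, 11.4 and 8.13 CPM in challenged Mirc11-/- libraries. Trem3 measured 0.600, 0.409 and 0.660 CPM in unchallenged and 11.4, 11.9 and 9.22 CPM in challenged wild-type libraries. Trem3 came to 2.44, 1.22 and 1.24 CPM in unchallenged and 7.56, 7.78 and 4.74 CPM in challenged Mirc11-/- libraries. Both were higher in unchallenged Mirc11-/- than wild-type, Trem1 by 0.94 ± 0.25 (adjusted p = 0.0202, lost in 3 alternatives) and Trem3 by 1.54 ± 0.36 (adjusted p = 0.00992, lost in 2).

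Clec4d and Clec4e, C-type lectin receptors that sense mycobacterial glycolipids, lie 6.5 kb apart on chromosome 6. Clec4d measured 3.27, 3.84 and 2.54 CPM in unchallenged and 65.8, 80.6 and 55.6 CPM in challenged wild-type libraries. Clec4d was at 3.69, 4.03 and 3.86 CPM in unchallenged and 35.4, 36.2 and 27.8 CPM in challenged Mirc11-/- libraries. Clec4e, also known as Mincle and shared with macrophages, measured 5.46, 6.70 and 4.27 CPM in unchallenged and 136, 148 and 102 CPM in challenged wild-type libraries. Clec4e measured 4.20, 5.52 and 4.41 CPM in unchallenged and 52.4, 64.2 and 43.5 CPM in challenged Mirc11-/- libraries. In neither case were the unchallenged genotypes apart (Clec4d 0.28 ± 0.20, adjusted p = 0.474, and Clec4e -0.19 ± 0.24, adjusted p = 0.733). After challenge Clec4e showed the largest deficit in Mirc11-/- of the 35 genes (-1.36 ± 0.16, adjusted p = 2.47e-05).

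**Figure D3:**
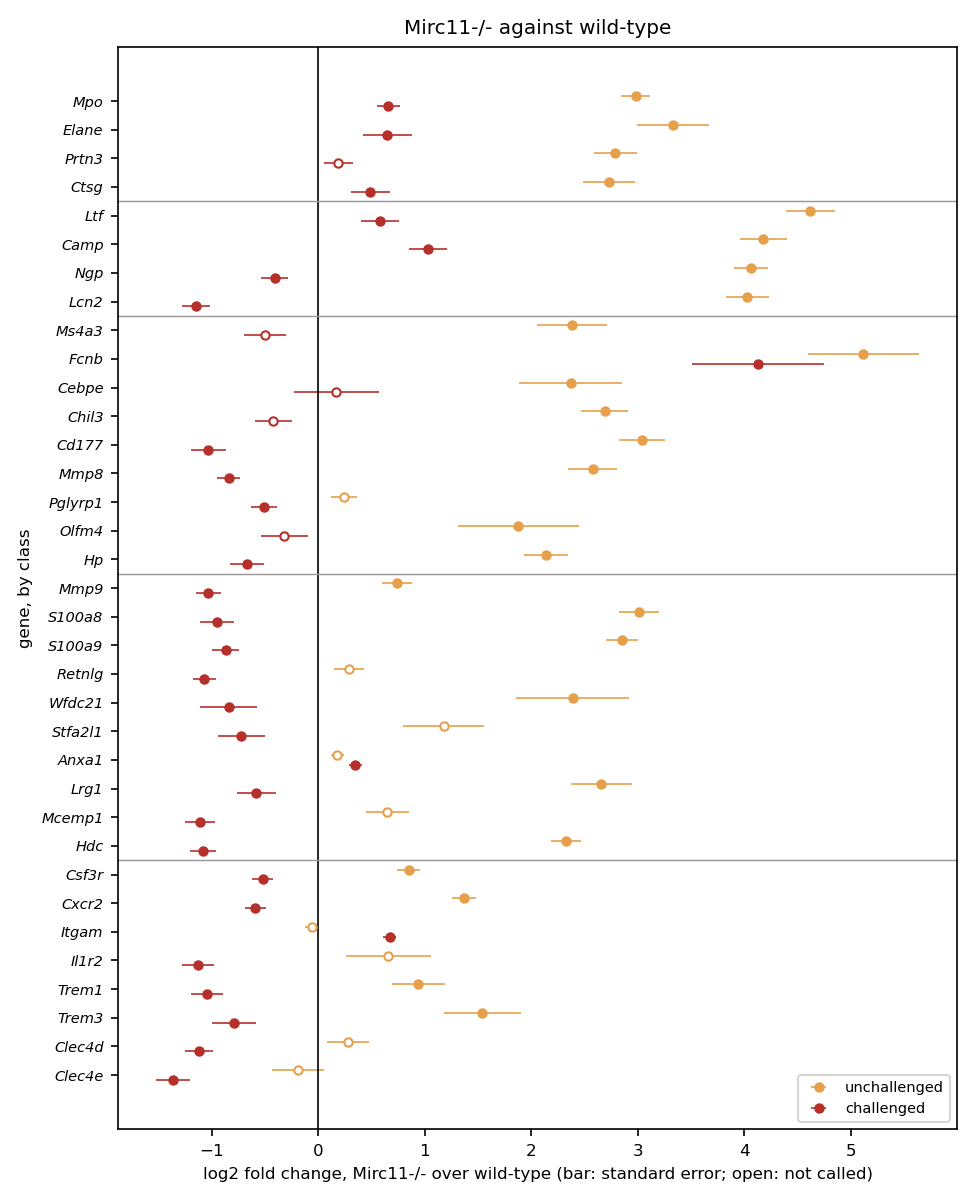
Log2 fold change of Mirc11-/- over wild-type for each gene, without challenge (orange) and after it (red), with bars of 1 standard error from the edgeR fit and open symbols where the adjusted p was 0.05 or more. Unchallenged differences run from -0.19 (Clec4e) to 5.12 (Fcnb), and after challenge most lie to the left of 0, with Fcnb at 4.13 far to the right.

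The median log2 response of the primary granule genes was 3.31 in wild-type and 0.81 in Mirc11-/-, that of the secondary genes 3.72 and -0.53, and that of the stage genes 4.26 and 1.15. Late genes had medians of 4.21 and 1.57, and receptors of 4.43 and 2.28. The test of the difference itself was called for all 4 primary genes (median -2.46), all 4 secondary genes (median -4.25), 8 of 9 stage genes (median -2.81), 9 of 10 late genes (median -2.57) and all 8 receptors (median -1.60), with every called difference negative apart from that of Itgam. For Ngp the difference was -4.46 ± 0.20 (adjusted p = 5.29e-09), for Mpo -2.32 ± 0.18 (adjusted p = 1.55e-07) and for Il1r2 -1.80 ± 0.42 (adjusted p = 0.00422).

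**Figure D4:**
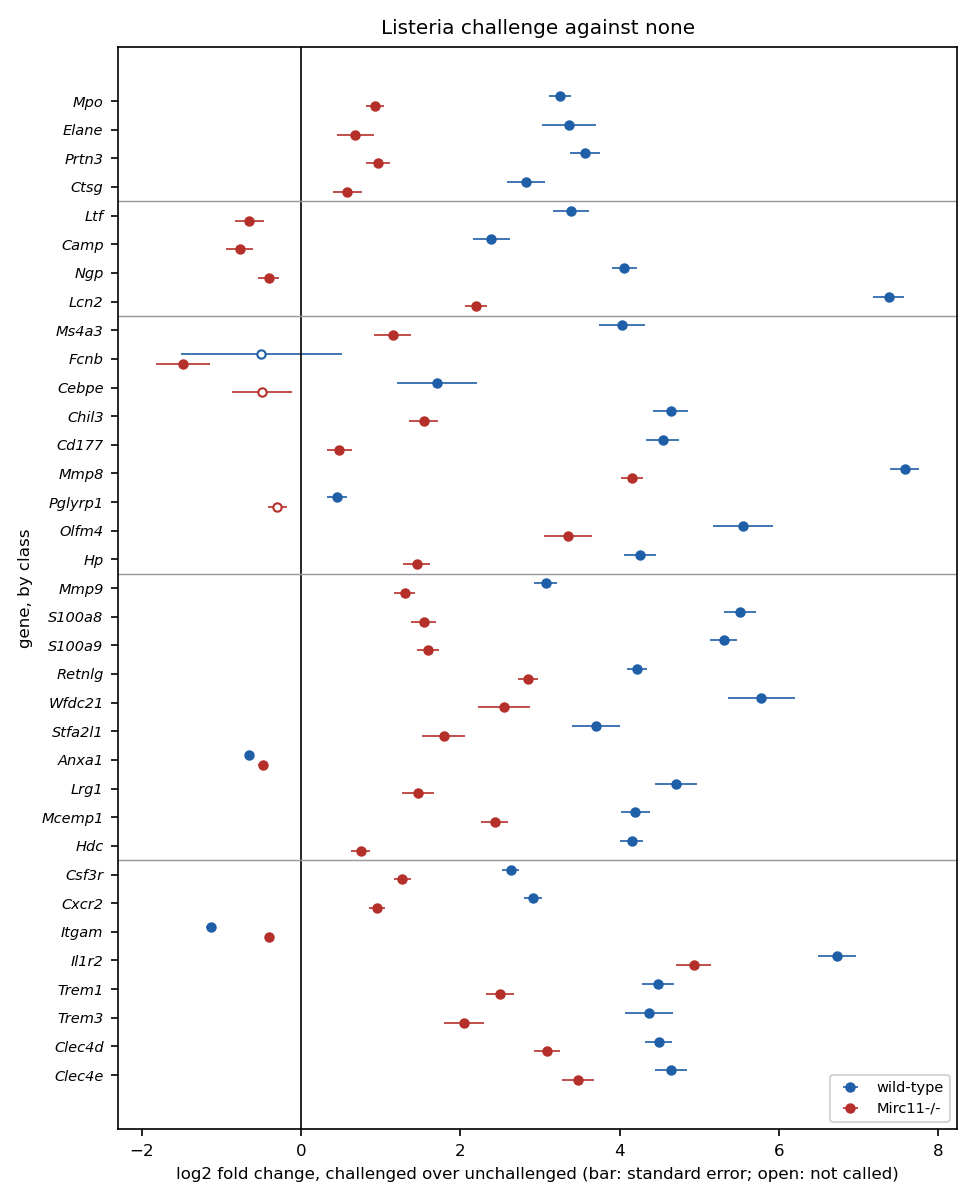
Log2 fold change of challenged over unchallenged libraries for each gene in wild-type (blue) and Mirc11-/- (red), with bars of 1 standard error from the edgeR fit and open symbols where the adjusted p was 0.05 or more. Wild-type responses reach 7.58 (Mmp8) and 7.38 (Lcn2). The filled red points for Ltf, Camp, Ngp, Fcnb, Anxa1 and Itgam lie below 0, as do the open red points for Cebpe and Pglyrp1.

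Ratios between genes within a library do not depend on scaling, and they are given as descriptions with no test. The summed counts of Ltf, Camp and Ngp per 100 counts of S100a8 and S100a9 ranged from 26.5 to 36.1 in unchallenged wild-type and from 78.0 to 82.5 in unchallenged Mirc11-/- libraries. After challenge they were 8.60 to 10.2 in wild-type and 16.6 to 20.1 in Mirc11-/-. Ltf, Camp and Ngp together were thus most prominent beside calprotectin in unchallenged Mirc11-/- preparations, and the challenged groups did not overlap. Lcn2, the other secondary granule gene, was left out of this sum, so these ratios do not describe the whole class. The primary granule sum on the same scale overlapped between unchallenged genotypes (12.5 to 18.7 in wild-type and 16.3 to 17.3 in Mirc11-/-) and was lower and separate after challenge (3.44 to 4.15 in wild-type and 8.28 to 12.6 in Mirc11-/-). Per count of the primary sum, Ltf, Camp and Ngp together ranged from 1.49 to 2.36 without and 2.29 to 2.80 with challenge in wild-type libraries, and 4.55 to 5.02 without and 1.42 to 2.00 with challenge in Mirc11-/- libraries.

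On that scale Retnlg and Cxcr2 were lower in unchallenged Mirc11-/- than in unchallenged wild-type libraries. Retnlg per 100 counts of S100a8 and S100a9 ranged from 25.5 to 35.3 in unchallenged wild-type and from 4.25 to 5.20 in unchallenged Mirc11-/- libraries, and after challenge from 12.5 to 13.7 and from 10.6 to 12.8. Cxcr2 ranged from 27.0 to 33.9 in unchallenged wild-type, 10.2 to 10.6 in unchallenged Mirc11-/-, 4.96 to 6.24 in challenged wild-type and 6.38 to 7.81 in challenged Mirc11-/- libraries. Unchallenged wild-type held the most Retnlg and Cxcr2 beside calprotectin, while the challenged genotypes overlapped for Retnlg and not for Cxcr2. Mmp8 was similar in both unchallenged genotypes (2.62 to 4.28 in wild-type and 2.58 to 2.79 in Mirc11-/-) and rose to 14.0 to 17.5 and 15.1 to 18.8. Il1r2 rose from 1.21 to 2.44 in unchallenged wild-type to 4.58 to 5.26 after challenge, and from 0.251 to 0.477 in unchallenged Mirc11-/- to 3.66 to 4.48. Fcnb ranged from 0.165 to 0.345 in unchallenged wild-type, from 0 to 0.0101 in challenged wild-type, from 1.13 to 1.15 in unchallenged Mirc11-/- and from 0.103 to 0.173 in challenged Mirc11-/- libraries. Lcn2 left the other secondary genes on challenge, its counts per count of Ltf, Camp and Ngp going from 0.145 to 0.249 in unchallenged wild-type to 2.58 to 2.88 after challenge, and from 0.169 to 0.183 in Mirc11-/- to 1.10 to 1.34.

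**Figure D5:**
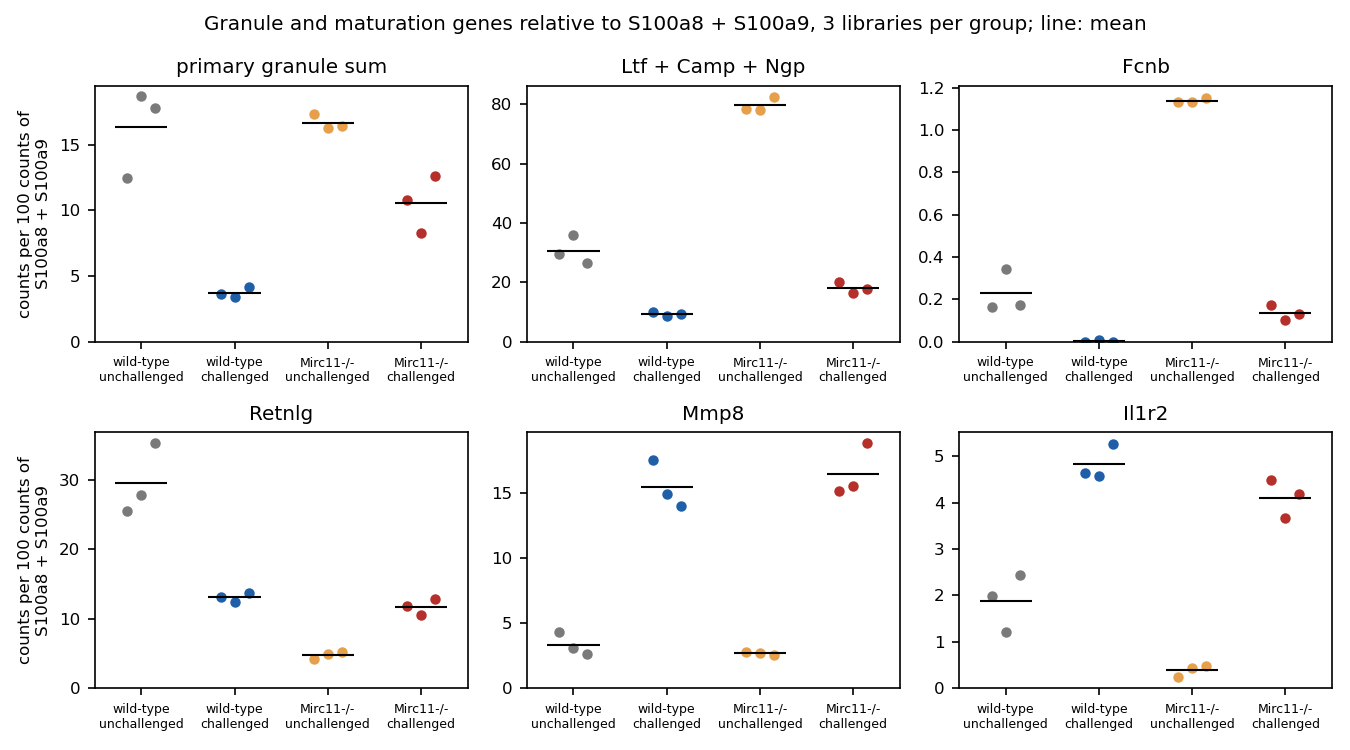
Counts of the named gene or gene sum per 100 counts of S100a8 plus S100a9 in each library, with a line at the mean of 3 libraries, by group and on linear axes from 0. Ltf plus Camp plus Ngp and Fcnb stand highest in unchallenged Mirc11-/-, Retnlg highest in unchallenged wild-type, and Mmp8 and Il1r2 highest in both challenged groups.

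Levels were compared between genes only per length, as mean CPM per kb of exon. Itgam led in unchallenged wild-type at 105 CPM per kb, followed by Anxa1 at 39.0 and S100a9 at 37.9, whose ranges of 37.3 to 41.4 and 35.8 to 40.3 overlapped. In unchallenged Mirc11-/- S100a9 led at 270, with S100a8 at 124, Itgam at 99.8 and Ngp at 64.6. After challenge the leaders were S100a9, S100a8 and Retnlg in both genotypes, at 1400, 662 and 263 CPM per kb in wild-type and 820, 366 and 134 in Mirc11-/-. Ngp was thus among the leading 4 only in unchallenged Mirc11-/-, a rank that was not tested. At the bottom, Fcnb measured 0.0331 CPM per kb in challenged wild-type, Cebpe 0.606 there, and Olfm4 0.0295 in unchallenged wild-type.

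Other genes of the pathway were counted from lists chosen with earlier results of these data known. Ligands and growth factors that drive granulopoiesis and recruitment were higher on challenge for 8 of 8 genes in wild-type and 5 of 8 in Mirc11-/-, with 8 of 8 lower in challenged Mirc11-/- than in challenged wild-type. Cxcl2, a CXCR2 ligand, averaged 0.672 CPM in unchallenged and 157 CPM in challenged wild-type, 1.09 in unchallenged and 73.7 in challenged Mirc11-/- libraries, and differed between challenged genotypes by -1.18 ± 0.15 (adjusted p = 4.73e-05). Cxcl1 and Cxcl3, its relatives, averaged 6.53 and 11.1 CPM in challenged wild-type and 3.84 and 4.86 CPM in challenged Mirc11-/-, and at most 0.0352 CPM in either unchallenged group. Between unchallenged genotypes 1 of the 8 was called higher in Mirc11-/-, 1 lower and 6 were not called, with a list median of -0.77. The higher one was Il6 (2.03 ± 0.24, adjusted p = 3.15e-05). These genes are made by cells other than neutrophils too.

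Among 7 transcription factors of granulocyte development, 5 rose and 1 fell on challenge in wild-type, and 4 were higher in unchallenged Mirc11-/-. Cebpb, which drives emergency granulopoiesis, rose by 2.71 ± 0.12 in wild-type (adjusted p = 2.64e-11) and 1.18 ± 0.11 in Mirc11-/- (adjusted p = 1.52e-06), and differed by 0.71 ± 0.12 between unchallenged genotypes (adjusted p = 0.000948). Spi1, which encodes PU.1, rose by 1.77 ± 0.11 and 0.54 ± 0.11 (adjusted p = 1.53e-09 and 0.00145). Irf8, a factor that favours monocytes over granulocytes, rose by 1.41 ± 0.08 in wild-type (adjusted p = 8.21e-10), and Gfi1, a repressor needed for granulocytes and also active in lymphocytes, fell by 0.96 there (adjusted p = 9.19e-08).

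The 6 subunit genes of the phagocyte NADPH oxidase gave 5 higher and 1 lower on challenge in wild-type, and 2 higher in unchallenged Mirc11-/-. Ncf1, its organising subunit, rose by 2.03 ± 0.07 in wild-type and 0.64 ± 0.07 in Mirc11-/- (adjusted p = 4.31e-12 and 8.81e-06) and differed by 0.25 ± 0.07 between unchallenged genotypes (adjusted p = 0.0346). Among 8 chemoattractant and homing receptors 7 rose in wild-type, and 5 were higher in unchallenged Mirc11-/-. Fpr1 and Fpr2, receptors for bacterial formyl peptides, rose by 5.84 ± 0.18 and 5.79 ± 0.23 in wild-type (adjusted p = 1.36e-12 and 3.68e-11) and by 3.41 ± 0.16 and 3.16 ± 0.20 in Mirc11-/- (adjusted p = 8.5e-10 and 4.19e-08). Cxcr4, which holds granulocytes in the marrow and is also found on lymphocytes, rose by 1.66 ± 0.06 in wild-type (adjusted p = 9.03e-12).

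Of 7 further stefins and antiproteases 4 were tested, and all 4 rose on challenge in both genotypes while 0 were called between unchallenged genotypes. Slpi, an inhibitor of elastase, averaged 15.3 CPM in unchallenged and 89.2 CPM in challenged wild-type, 15.9 in unchallenged and 60.4 in challenged Mirc11-/- libraries. In that comparison 2 of the 4 had an unadjusted edgeR p below 0.05, and DESeq2 called 0. With 6.64% of all genes called higher and 5.07% lower there by edgeR, 0 of 4 lies near the general share. Of 10 other neutrophil genes 9 were tested, of which 9 rose in wild-type and 4 rose and 1 fell in Mirc11-/-, and 7 were higher in unchallenged Mirc11-/-. Itgb2l, an integrin beta-like gene of maturing neutrophils, rose by 4.54 ± 0.23 in wild-type (adjusted p = 1.47e-10), showed no called change in Mirc11-/- (0.06 ± 0.16, adjusted p = 0.841) and was higher by 3.61 ± 0.24 in unchallenged Mirc11-/- (adjusted p = 9.73e-08). Asprv1, a protease of mature neutrophils, did not differ detectably between unchallenged genotypes (-0.27 ± 0.21, adjusted p = 0.521).

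Marker lists for the labelled cells and for other cells were read beside these results. All 10 markers of the labelled NK cells were detected in every group, and 0 of 10 were called between unchallenged genotypes by edgeR, where 0 had an unadjusted p below 0.05, and 0 by DESeq2. Among all genes edgeR called 6.64% higher and 5.07% lower there, so 0 of 10 lies near the general share. Neutrophil markers were detected too, 5 of the 6 being members, and the sixth, Ly6g, averaged 0.188 CPM without and 6.19 CPM with challenge in wild-type libraries, and 1.69 CPM without and 3.67 CPM with challenge in Mirc11-/- libraries. Its differences were 5.08 ± 0.39 on challenge in wild-type (adjusted p = 2e-08) and 3.11 ± 0.45 between unchallenged genotypes (adjusted p = 0.000207). Monocyte and macrophage markers were higher on challenge for 9 of 11 in wild-type, and 5 of 11 were higher in unchallenged Mirc11-/- than wild-type, with sums of 819 to 872, 948 to 1040, 810 to 867 and 839 to 1020 CPM in unchallenged and challenged wild-type and unchallenged and challenged Mirc11-/- libraries.

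Markers of other marrow-type cells separated the unchallenged genotypes as well. All 7 erythroid markers were higher in unchallenged Mirc11-/- than wild-type, their sum being 7570 to 8770 CPM without and 1140 to 1550 CPM with challenge in wild-type libraries, and 24300 to 27000 CPM without and 13400 to 16200 CPM with challenge in Mirc11-/- libraries. Haemoglobin transcripts took 3.53% to 3.98% of counts in unchallenged Mirc11-/- libraries and 1.13% to 1.32% in unchallenged wild-type. Of 5 eosinophil markers 2 were higher in unchallenged Mirc11-/-, 1 was lower and 2 were not called. The granule protein gene Prg2 differed by 2.42 ± 0.17 (adjusted p = 2.3e-07) and the receptor gene Il5ra by -0.85 ± 0.15 (adjusted p = 0.00106). Of 4 myeloid progenitor markers 1, Cd34, was higher and 2 were lower, including Kit (-0.94 ± 0.06, adjusted p = 1.29e-07), whose levels also come from other cells. In the same comparison all 5 B cell markers and 3 of 5 T cell markers were lower, and 4 of 5 dendritic cell markers were higher. The part of these cells in the differences of the 35 genes was not tested.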

How the data were processed

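Polyadenylated RNA of 12 libraries was extracted with Trizol and made into libraries with an Illumina TruSeq kit, per the labels. Reads were trimmed with Trim Galore 0.4.1, aligned with Bowtie2 2.2.8 and quantified with RSEM 1.3.0 on GRCm38, per the submitters' processing notes. The deposited values are whole-number counts per gene. RSEM gives estimated counts, so the authors may have rounded them, and reads shared by near-identical genes are split by its model. The annotation release and the use of strand are not stated in the labels.

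The 35 genes, their classes and all lists were chosen with earlier results of these data known, and all members are named. Of other lists, up to 4 genes with the smallest p for the challenge in wild-type could be named. Gm26532, Xist and Ddx3y, outside that rule, were used to check the labels and were chosen after their values were seen. Counts were fitted in edgeR 4.0.16 (R 4.3.3) with robust quasi-likelihood, TMM scaling, filterByExpr (minimum count 10, minimum total 15) and 1 term per group over all 12 libraries, which share 1 estimate of the spread. Adjusted p is Benjamini-Hochberg over 16694 genes, called below 0.05, and the standard error is the log2 change divided by the root of F. The design text calls the replicates biological. Within a group no libraries agreed within sampling noise. CPM are from column totals. Alternatives were DESeq2 1.42.0, other scalings, no filter, only the groups compared, replicate blocks and each library left out. The fit was tested on simulated counts. Gene positions and overlaps are from GENCODE vM21 (GRCm38), promoters and microRNAs from RefSeq (GRCm38.p6). Seed matches are 7 bases in the longest annotated 3′ untranslated region. Exact intervals are Clopper-Pearson at 95% and cover counting error only. Figures were drawn with matplotlib 3.10.9.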

Additional observations from a re-analysis of the deposited data

Results flagged for a closer look

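The response to challenge differed between the genotypes for 33 of the 35 genes by the interaction term of the edgeR fit. The values that follow are the log2 response in Mirc11-/- minus that in wild-type. Among primary granule genes they were -2.32 for Mpo, -2.68 for Elane, -2.60 for Prtn3 and -2.24 for Ctsg. Secondary granule genes gave -4.04 for Ltf, -3.15 for Camp, -4.46 for Ngp and -5.18 for Lcn2. For the stage genes they were -2.88 for Ms4a3, -2.20 for Cebpe, -3.11 for Chil3, -4.06 for Cd177, -3.42 for Mmp8, -0.75 for Pglyrp1, -2.20 for Olfm4 and -2.81 for Hp. Late genes gave -1.76 for Mmp9, -3.97 for S100a8, -3.72 for S100a9, -1.36 for Retnlg, -3.23 for Wfdc21, -1.91 for Stfa2l1, -3.24 for Lrg1, -1.77 for Mcemp1 and -3.40 for Hdc. Receptors gave -1.37 for Csf3r, -1.96 for Cxcr2, -1.80 for Il1r2, -1.98 for Trem1, -2.33 for Trem3, -1.40 for Clec4d and -1.17 for Clec4e, while Itgam alone was positive at 0.73.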

How the results depend on the processing

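No called change reversed in the alternatives that were run, namely other scalings, DESeq2, no filter, only the groups compared, replicate blocks and each library left out. Values without a call changed sign when 1 challenged library was left out for Fcnb (challenge in wild-type and difference of responses) and for Cebpe (challenged genotypes). Over genes and alternatives 92 calls were lost and 24 gained. With no scaling, the difference of responses was called above 0 for 2 genes, Itgam and Anxa1 (0.28, adjusted p = 0.0269), where the reported count was 1, and both fell less in Mirc11-/-. The count higher in challenged Mirc11-/- than wild-type, 8 as reported, ran from 5 to 8 with 1 library left out, and was 5 without challenged wild-type replicate 1 or challenged Mirc11-/- replicate 1 or 2. Upper-quartile scaling moved the median of all genes by -0.11 for the challenge in wild-type, and no scaling by 0.11 for the difference of responses. Without haemoglobin genes the class sums in unchallenged Mirc11-/- were 39.4 (primary), 221 (secondary), 465 (late) and 594 CPM (receptors), more than 1 SD from those reported.

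The labels carry replicate numbers at the start and the end of a title. Same-numbered libraries did not deviate together (r from -0.317 to 0.249), so the numbers were not taken to pair samples. With the replicate block from the start of the title, challenge raised 24 genes in Mirc11-/- instead of 27, Elane (adjusted p = 0.207), Ctsg (0.0522) and Cd177 (0.128) losing the call. The block from the end gave 25, and higher in challenged Mirc11-/- were 7 and 6 genes under the blocks. Genes with under 10 counts per library, such as Fcnb in wild-type, are limited by depth.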
